A study of Schmidtea mediterranea with 9 samples.

Results

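Ovarian tissue of the planarian flatworm *Schmidtea mediterranea* was compared with the non-gonadal tissue that surrounds the gonads, across the transcripts that passed a filter on low values. Of the 36036 transcripts counted by the study, 18416 (51.1%) had a deposited CPM (read counts scaled to library size, with a further factor of each library) of at least 1 in at least 3 of the 9 libraries, and these were compared. The ovary group held 3 libraries and the non-gonadal group held 3 libraries, and both came from wild-type worms of the sexual strain, which are hermaphrodites with ovaries and testes in 1 body. No worm was treated. An ovary library combined tissue of 14 worms, of which 10 were cut across and 4 sagittally, and a non-gonadal library that of 6 worms, of which 4 were cut across and 2 sagittally. Areas were cut by laser from stained sections of 16 µm, so a library can hold RNA of every cell type lying in the captured area. A lower value in such bulk tissue can come from fewer cells of a type or from less RNA per cell, and these cannot be told apart.

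Planarian ovaries lie under the brain and hold oogonia and oocytes among somatic cells that enclose and support them. Oocytes of many animals store large amounts of maternal RNA and protein, keep part of that RNA silent until it is needed, and carry small RNA pathways that hold transposons in check. The non-gonadal tissue of a planarian contains muscle, gut, nerve, epidermis and the dividing stem cells called neoblasts, so that genes of cell division and RNA regulation are also active outside the gonads.

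4 genes represent the ovary here: *nanos*, which encodes a translational regulator of early germ cells; *lecg*, a marker of oocytes; *zfs1*, which encodes a zinc finger protein; and *aadc*, the gene for aromatic amino acid decarboxylase, an enzyme of monoamine synthesis. The stretches printed identify genes whose levels are described below. They come from the probe sequences of the study, not from the reads or the counted transcripts, and the start codons were not checked against an annotation. They are the first 120 bases, 5′ to 3′, of the longest open reading frame that begins with a start codon within the first 399 bases of each gene's probe, with the start codon in capitals.
nanos: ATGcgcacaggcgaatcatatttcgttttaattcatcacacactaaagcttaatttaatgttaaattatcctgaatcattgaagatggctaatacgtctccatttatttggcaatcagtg
lecg: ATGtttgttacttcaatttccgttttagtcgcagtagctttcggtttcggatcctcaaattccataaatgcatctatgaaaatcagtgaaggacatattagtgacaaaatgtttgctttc
zfs1: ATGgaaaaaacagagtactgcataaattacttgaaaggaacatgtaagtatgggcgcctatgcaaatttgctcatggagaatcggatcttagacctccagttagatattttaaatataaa
aadc: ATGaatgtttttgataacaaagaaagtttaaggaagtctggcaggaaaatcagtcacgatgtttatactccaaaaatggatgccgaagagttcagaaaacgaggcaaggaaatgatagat
The G and C content of these stretches was 33.3% in *nanos*, 35% in *lecg*, 34.2% in *zfs1* and 35.8% in *aadc*.

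Levels of single transcripts are given as TPM, a share of the library adjusted for transcript length. Transcripts used here for female germ cells were all higher in ovary. The paper also reports *nanos* and *klf4* in early male germ cells, so these genes do not mark female cells alone. In ovary libraries *nanos* had 60.8, 65.8 and 72.1 TPM, against 10.8, 12.5 and 10.8 TPM in non-gonadal libraries. The oocyte marker *lecg* had 2840, 2852 and 3059 TPM in ovary, against 8.2, 28.4 and 7.4 TPM in non-gonadal libraries. For *zfs1* the ovary libraries had 158, 129 and 143 TPM and the non-gonadal libraries 1.94, 5.48 and 2.46 TPM. No library of one tissue reached the range of the other for these 3 genes, and the second non-gonadal library was the highest of its group each time. A transcript that matches KLF4, a zinc finger transcription factor, had 79.7, 114 and 102 TPM in ovary and 3.63, 7.72 and 5.33 TPM in non-gonadal tissue. Testis means were 30.0 TPM for *nanos*, 98.8 TPM for *lecg*, 0.0310 TPM for *zfs1* and 2.20 TPM for the KLF4 match. In log2 units the differences between tissues were 1.91 ± 0.13 for *nanos*, 7.0 ± 0.48 for *lecg*, 4.79 ± 0.27 for *zfs1* and 3.50 ± 0.22 for the KLF4 match (estimate ± SE, edgeR quasi-likelihood test, largest adjusted p = 5.0e-08). The edgeR test itself gives no SE. Here and below, the SE of a log2 difference was worked back from the estimate and its test statistic, and is approximate. The pair of transcripts annotated as *tgs-1*, a marker of some neoblasts and of early female germ cells in planarians, was higher too, with 13.5 ± 4.19 and 21.9 ± 5.37 TPM in ovary against 2.81 ± 0.496 and 4.62 ± 1.69 TPM in non-gonadal tissue (SD, n = 3 each).

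Both transcripts used here for somatic ovarian cells were higher as well. The paper also places *aadc* in neurons, secretory cells around the pharynx, testes and vitellaria, so it does not mark these cells alone. The decarboxylase gene *aadc* had 84.8, 103 and 90.4 TPM in ovary and 9.16, 10.5 and 10.5 TPM in non-gonadal tissue, a log2 difference of 2.56 ± 0.12. A transcript that matches Delta-like protein C, a ligand of the Notch receptor in zebrafish, had 18.3, 26.3 and 19.7 TPM in ovary and 2.10, 2.03 and 2.17 TPM in non-gonadal tissue, a log2 difference of 2.71 ± 0.13. Both had an edgeR adjusted p of at most 3.4e-09. RNA of the germ cell markers and of these transcripts was present in the ovary libraries. Whether the Delta-like match is the *delta3* of the paper, or the KLF4 match its *klf4*, was not checked. Of the genes above, *nanos* was known from earlier work. The paper found *lecg*, *zfs1* and the ovarian *aadc* through these libraries, and the matches were drawn from transcripts it listed as ovary-enriched. The direction of these genes and matches is therefore no independent evidence.

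**Figure D1:**
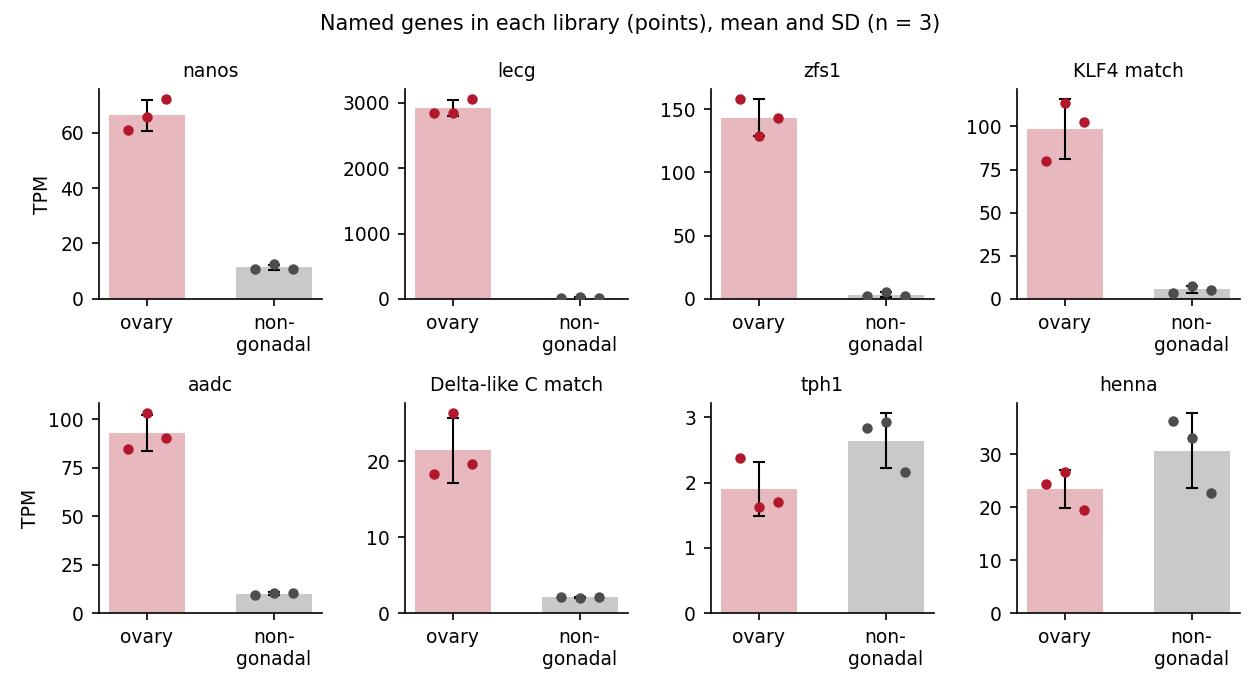
TPM of 8 named genes in each library, with ovary at the left and non-gonadal tissue at the right of every panel. Points are libraries, bars are means and error bars are SD (n = 3). The 6 genes from *nanos* to the Delta-like protein C match had every ovary library above every non-gonadal library. For *tph1* and *henna* the ovary means of 1.91 and 23.4 TPM lay below the non-gonadal means of 2.64 and 30.7 TPM, with overlapping libraries.

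On synthesis of serotonin, the other 2 enzyme genes went the other way from *aadc*. The tryptophan hydroxylase gene *tph1* had 2.38, 1.63 and 1.71 TPM in ovary and 2.84, 2.93 and 2.16 TPM in non-gonadal tissue. The gene *henna*, a homolog of the hydroxylase that acts on tryptophan outside the nervous system in Drosophila, had 24.3, 26.6 and 19.4 TPM in ovary and 36.2, 33.1 and 22.7 TPM in non-gonadal tissue. In ovary, *henna* averaged 23.4 TPM and *tph1* 1.91 TPM. In TPM the libraries of the 2 tissues overlapped for both genes, and after scaling for library composition they did not. The log2 differences on the scaled counts were -1.09 ± 0.23 for *tph1* (edgeR adjusted p = 0.0010) and -1.02 ± 0.18 for *henna* (edgeR adjusted p = 0.00030). Both sat at the edge of the 2-fold limit, and without composition scaling the values were -0.68 for *tph1* and -0.60 for *henna* and the calls were lost. Single libraries also decided them: *tph1* was at -0.96 without the second ovary library, and *henna* was at -0.91 without the third ovary library, -0.88 without the first non-gonadal library and -0.97 without the second.

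Across all transcripts, as many were higher as were lower. A transcript was called when the edgeR quasi-likelihood test gave an adjusted p (Benjamini-Hochberg) no larger than 0.01 and the change was 2-fold or more. By this rule 3364 of 18416 transcripts were higher in ovary (18.3%) and 3466 were lower (18.8%), which together is 37.1% of those tested. A further 1884 passed on p with a smaller difference upward, and 2000 passed with a smaller difference downward. Of those called higher, 3353 had every scaled ovary library above every non-gonadal library, and of those called lower, 3464 had every ovary library below. Among all transcripts tested, the ovary libraries lay wholly above in 34.9% and wholly below in 37.3%. The p-values measure the spread between these libraries. An exact permutation test of 3 against 3 libraries cannot go below a two-sided p of 0.10, so no such test was used.

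**Figure D2:**
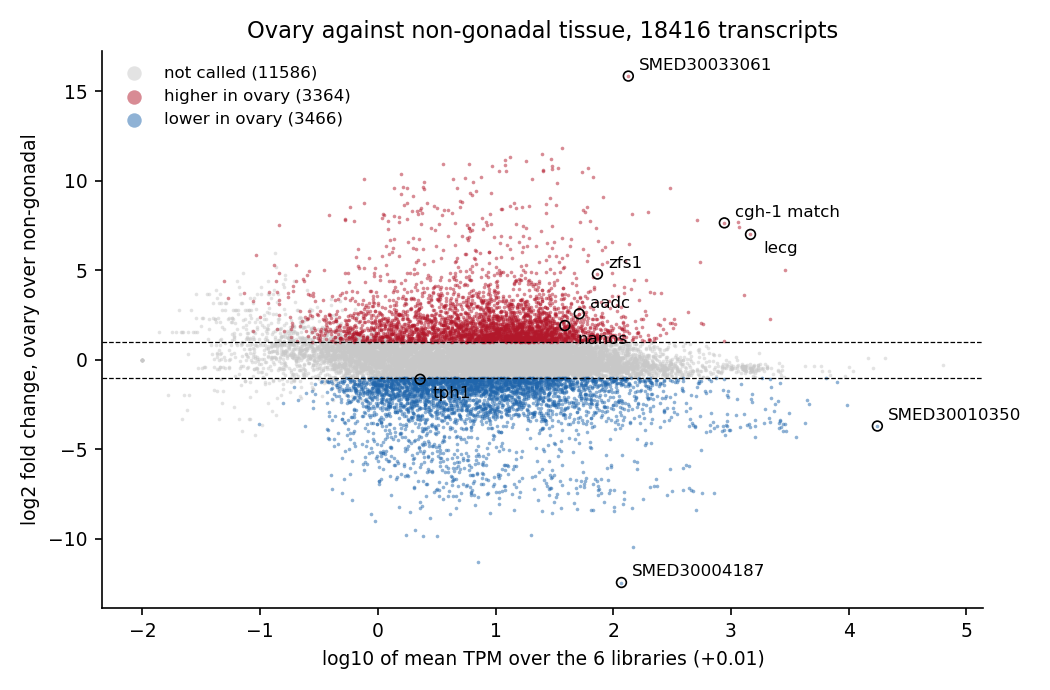
Log2 fold change of ovary over non-gonadal tissue against the log10 of the mean TPM over the 6 libraries, for 18416 transcripts. Red points are the 3364 called higher in ovary, blue points the 3466 called lower, grey points were not called, and dashed lines mark 2-fold. The differences spread further from 0 at middle levels than at the top, where SMED30010350 stands out below and *lecg* above.

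The scaling decides how these calls divide. The ovary libraries carried TMM composition factors of 1.37 to 1.39 and the non-gonadal libraries 1.02 to 1.04, so a difference from scaled counts is smaller than the ratio of TPM when ovary is higher and larger when it is lower. With composition scaling the median log2 difference of all transcripts was 0.02 and 49.3% of the calls were higher in ovary. With library size alone it was 0.44, a shift of 0.42, and 5311 transcripts were higher and 2390 lower, so that 69.0% of the calls were higher. Differences are therefore relative to the average transcript.

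Libraries of 1 tissue resembled each other far more than those of the other. Total counts ran from 20629642 to 25730833 in ovary and from 18611584 to 21654320 in non-gonadal libraries, and the correlation of log2 levels across transcripts, which are not independent replicates, was 0.987 to 0.989 within ovary, 0.985 to 0.990 within non-gonadal tissue and 0.798 to 0.819 between them. Every pair of replicates differed beyond counting noise, the chi-square statistic averaging no less than 11.9 a transcript. The second non-gonadal library stood apart for some of the most ovary-rich transcripts. When each non-gonadal library in turn was set aside and transcripts were chosen for at least 100 scaled CPM in ovary and under 0.5% of that in the other 2, the choice gave 14 transcripts when the second library was set aside, and there its median level was 0.89% of the ovary level. It gave 3 transcripts when the first or the third library was set aside, with medians of 0.12% and 0%. Those 3 also had to be under 0.5% in the second library, so these medians cover unlike sets of transcripts. Over all 3364 transcripts called higher, the median ratio of the second library to the mean of the other 2 was 1.04. Without the second non-gonadal library the counts of calls were 3245 higher and 3340 lower, and *lecg*, *zfs1* and the KLF4 match stayed called.

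Testis markers were a second measure of what the captures held. The list held 6 genes, of which *bic-c* is known from ovary as well. It is only a part of the known testis genes, since the paper examined a larger panel of genes with reported gonadal expression. The summed TPM of these 6 testis markers (*sped-1*, *C3H-zfn-1*, *elav2*, *bic-c*, *eIF3c* and *nf-yb*) was 112 to 165 in ovary libraries, 31.7 to 60.6 in non-gonadal libraries and 10606 to 11638 in testis libraries. Without *eIF3c* and *nf-yb*, the members called higher in ovary, the sums were 106, 51.7 and 106 TPM in ovary libraries. In non-gonadal libraries they were 52.9, 25.7 and 25.1 TPM. The tissues then overlapped only in that the second ovary library lay just below the first non-gonadal library. Because *eIF3c* and *nf-yb* were left out for their call in this same comparison, the closer sums follow in part from that choice. None of the 6 was at 0 in any library of either tissue. A further testis gene, *gapdh*, was not in the list. It had 0.672, 1.11 and 0.879 TPM in ovary and 1.49, 0.948 and 0.837 TPM in non-gonadal tissue, with a testis mean of 82 TPM, and was not called (log2 difference -0.91 ± 0.29, edgeR adjusted p = 0.015). The spermatid gene *sped-1* had 77.2, 35.2 and 77.8 TPM in ovary and 38.7, 18.3 and 18.2 TPM in non-gonadal tissue, and was not called (log2 difference 0.73 ± 0.35, edgeR adjusted p = 0.077). It was lowest in the second library of the ovary and highest in the first library of the non-gonadal tissue, and *C3H-zfn-1* and *elav2* had the same order. Without the first non-gonadal library these 3 were called higher, with log2 differences of 1.19 for *sped-1*, 1.11 for *C3H-zfn-1* and 1.45 for *elav2*, and without the second ovary library *sped-1* was called at 1.04. As a share of the testis mean, the ovary libraries had 0.435% to 0.963% for *sped-1*, against 12.1% to 16.3% for the translation factor gene *eIF3c* and 14.3% to 15.3% for the transcription factor gene *nf-yb*, both of which were called higher in ovary. The part of testis RNA in these results was not tested. Of the 3364 transcripts called higher in ovary, 339 had a testis mean at least 10 times their ovary mean. In 736 (21.9%) the ovary mean was more than 10 times the testis mean. The same shares among all tested transcripts were not computed. These numbers therefore do not show whether the higher class is unusual in this respect.

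The transcripts that differed carried unequal shares of the RNA. In ovary libraries those called higher made up 12.8%, 14.4% and 13.7% of all TPM, against 2.00%, 2.12% and 2.08% in non-gonadal libraries. Those called lower made up 11.5%, 10.9% and 9.92% of all TPM in ovary libraries, against 39.2%, 38% and 39% in non-gonadal libraries. The calls were made on these same libraries, so the direction of both contrasts follows from them and only the sizes are described. The lower class was led by abundant transcripts: 70 of its members had a non-gonadal mean of at least 1000 TPM, whereas 11 members of the higher class had an ovary mean of at least 1000 TPM. Most members of the higher class were of middle level, with 1861 between 10 and 100 TPM in ovary and 1086 between 1 and 10 TPM.

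**Figure D3:**
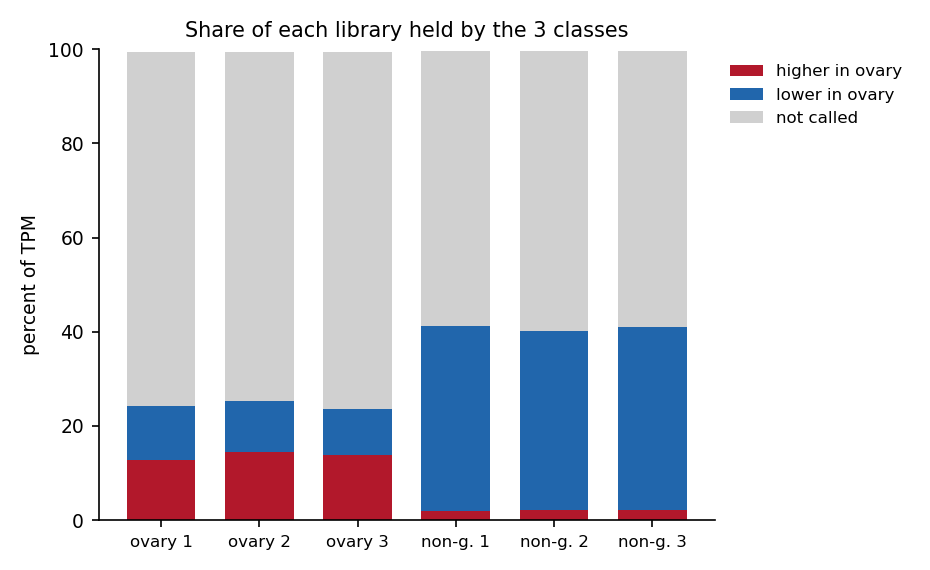
Percent of the TPM of each library held by transcripts called higher in ovary, called lower in ovary or not called, with the 3 ovary libraries at the left and the 3 non-gonadal libraries at the right. The lower class took 9.92% to 11.5% of the ovary libraries and 38% to 39.2% of the non-gonadal libraries. Transcripts left out by the filter fill the small gap to 100%.

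Most differences were modest and a minority were very large. Of transcripts called higher, 1956 (58.1%) differed by 2 to 4-fold, 1042 (31.0%) by 4 to 16-fold, 195 (5.80%) by 16 to 64-fold and 171 (5.08%) by over 64-fold. Among those called lower the numbers were 1873 (54%), 1119 (32.3%), 253 (7.30%) and 221 (6.38%). The median size was 1.79 on the log2 scale for the higher class and 1.88 for the lower class. The transcripts called higher were longer than those called lower, with median lengths of 1490 and 1227 bases beside 1360 for all tested. Across 5 bins of length with near-equal numbers of transcripts, the share called higher was 14.2% in the shortest and 21.1% in the longest, and the share called lower was 24.2% in the shortest and 12.7% in the longest. Across 5 such bins of mean TPM, the share called higher was 13.7% in the lowest and in the highest bin and 23.3% in the bin next to the highest. The part of length in the calls was not tested.

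Some transcripts were counted in 1 tissue and nearly absent from the other. With at least 10 counts in each ovary library and at most 3 counts over all non-gonadal libraries there were 134 transcripts, of which 58 had 0 non-gonadal counts. The reverse, with at least 10 counts in each non-gonadal library and at most 3 over all ovary libraries, held for 58 transcripts, of which 12 had 0 ovary counts. Leaving out a library loosens the rule, so neither number could fall. Both numbers grew most when a library of the tissue near 0 was left out. The first was 169 without the first, 195 without the second and 159 without the third non-gonadal library, and 135 to 141 without an ovary library. The reverse number was 98 without the first, 111 without the second and 92 without the third ovary library, and 58 to 60 without a non-gonadal library. The 134 transcripts had a median of 5.43 TPM in ovary and at most 269 TPM.

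The transcript at that maximum was SMED30033061, which has no name in the tables at hand. It had 9057, 11847 and 8915 counts in ovary libraries and 0 in all non-gonadal libraries, and was at least 6679-fold higher in ovary against a floor of 3 counts over the non-gonadal group. The most abundant transcript called higher among those without a name, SMED30033583, had 7163, 4382 and 5461 TPM in ovary and 79.7, 163 and 102 TPM in non-gonadal tissue. On the lower side SMED30004187 had 0, 0 and 1 counts in ovary libraries and 1922, 2151 and 1565 counts in non-gonadal libraries, a ratio of non-gonadal to ovary of 8391 with an exact 95% interval from counting of 1505 to 331474. The most abundant transcript called lower, SMED30010350, had 4347, 3982 and 2839 TPM in ovary and 31833, 30836 and 31410 TPM in non-gonadal tissue. On the composition-scaled counts it was lower by 13-fold.

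Names were at hand for 416 of the transcripts, all from the first part of the study's own table of ovary-enriched transcripts. A name that carries a species is the closest match to a protein of that species, and some names carry none. That table was chosen on these libraries, so the direction of its members was fixed by the choice and is no independent evidence. Of the 416, 414 were called higher beside a background of 18.3%, and nothing is read from that count. Grouped by role into 18 lists, 148 of them describe which machinery the class contained and how far its members differed, beside a median of 1.79 for the whole higher class and 0.02 for all transcripts tested. Of the 148, 147 were called higher, and the number was 143 to 148 under every alternative. These numbers, and the counts called in each list below, were set largely by that choice. The background for each of them is the same 18.3%, and nothing is read from them. How reads that map to several transcripts were counted is not given in the sources at hand, so the values of transcripts with close copies are uncertain.

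**Figure D4:**
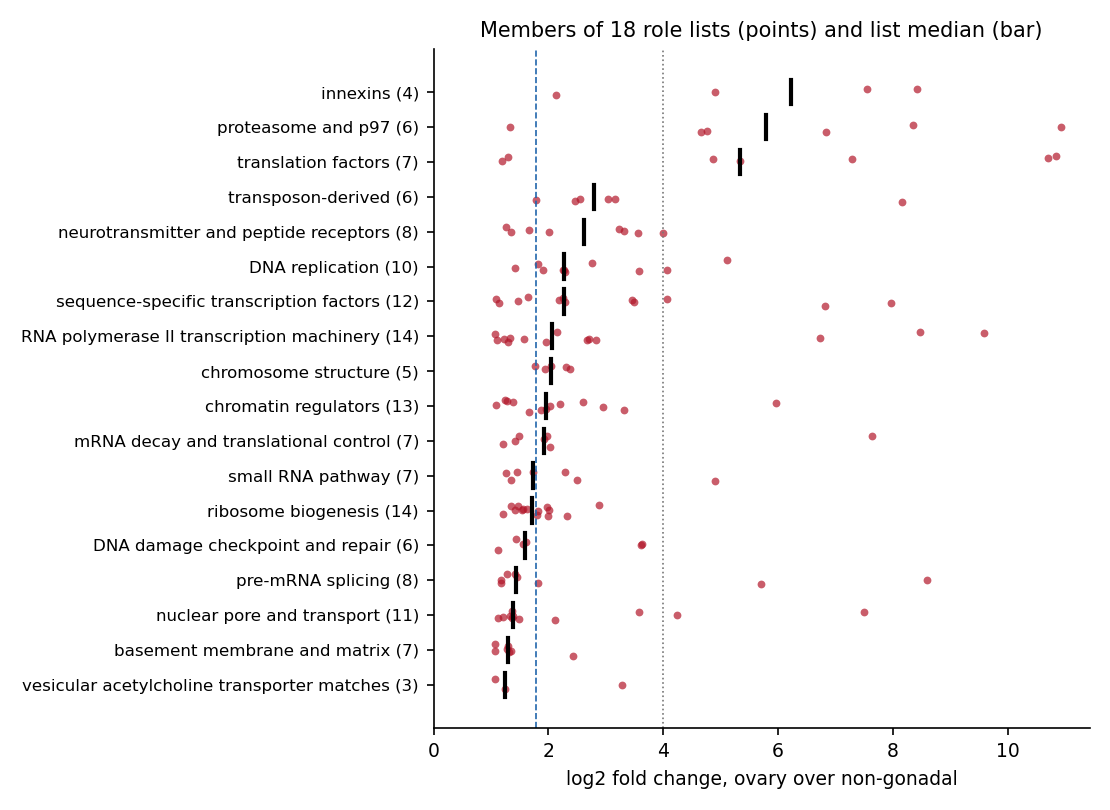
Log2 fold change of ovary over non-gonadal tissue for the members of 18 role lists, with the number of members in brackets. Points are transcripts, black bars are list medians, the dashed line is the median of 1.79 over all 3364 transcripts called higher, and the dotted line marks 16-fold. Innexins, proteasome and p97, and translation factors have medians of 6.22, 5.80 and 5.34.

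Small RNA pathway matches were all called higher, 7 of 7, with a median of 1.73. The match to zebrafish TDRD1, a Tudor protein that gathers components of the piRNA pathway, was the most abundant, with 40.4, 60.6 and 46.1 TPM in ovary and 13, 13.3 and 13 TPM in non-gonadal tissue. A match to human TDRD12 had 37.5, 58.9 and 45 TPM in ovary and 5.36, 6.56 and 6.64 TPM in non-gonadal tissue. The match to mouse PNLDC1, a nuclease that trims piRNAs in mammals, averaged 46.7 ± 6.04 TPM in ovary and 9.02 ± 0.302 TPM in non-gonadal tissue (SD, n = 3 each). The mean non-gonadal level was 2.39 TPM or more for every match in the list except TUT7. TUT7 adds uridines to RNA ends, and its match stood furthest out, with 36.9, 36.7 and 30.7 TPM in ovary against 0.891, 0.894 and 0.465 TPM in non-gonadal tissue, a log2 difference of 4.89 ± 0.22 (edgeR adjusted p = 1.6e-09). Matches to Drosophila Dicer and to lin-28, an RNA-binding protein of the let-7 pathway, differed by 1.34 ± 0.11 and 2.50 ± 0.15 on the log2 scale.

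Regulators of mRNA decay and translation were called higher in 7 of 7, with a median of 1.93. The match to the worm RNA helicase CGH-1, which protects and silences stored maternal mRNA in that animal, dominated the list, with 1473, 2041 and 1744 TPM in ovary against 1.16, 14.3 and 1.30 TPM in non-gonadal tissue. Its second non-gonadal library was more than 10 times each of the other 2, and its standard error was large beside that of its neighbours (7.64 ± 0.84, edgeR adjusted p = 3.9e-06). The remaining 6 lay between 1.21 and 2.02. They included the match to the decapping enzyme DCP2, with 32.5 ± 3.36 TPM in ovary and 5.32 ± 0.200 TPM in non-gonadal tissue, and matches to 2 subunits of the CCR4-NOT deadenylase, at 1.48 ± 0.11 and 1.43 ± 0.12 on the log2 scale.

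Translation factor matches were called higher in 7 of 7 with a median of 5.34, and 5 of them exceeded 16-fold. The most abundant, the match to subunit G of initiation factor eIF3, was among the smallest in difference, with 108, 125 and 118 TPM in ovary and 32.2, 33 and 33.6 TPM in non-gonadal tissue. The match to subunit H of eIF3 had 58.4, 64.1 and 59.4 TPM in ovary, from 1151, 1389 and 1121 counts, and 1, 0 and 0 counts in non-gonadal libraries. Its ratio by counts was 2460, with an exact 95% interval of 441 to 97189. A match to the helicase eIF4A had 1856, 2205 and 1702 counts in ovary and 1, 0 and 1 counts in non-gonadal tissue, a ratio of 1936 (exact 95% interval 536 to 15992). Further members near absence outside the ovary were matches to eIF4G, with 16.3, 14.4 and 16.2 TPM in ovary and 0, 0.0542 and 0.118 TPM in non-gonadal tissue, and to elongation factor 1-alpha, whose 2 transcripts averaged 7.98 and 13.3 TPM in ovary and 0.176 and 0.207 TPM in non-gonadal tissue. Such proteins serve every cell, and whether other transcripts encode further copies of them was not analysed here.

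Proteasome matches showed the same division. The match to chicken subunit PSMD13 had 112, 138 and 122 TPM in ovary and 29.7, 31.1 and 34.2 TPM in non-gonadal tissue, a log2 difference of 1.33 ± 0.10. All others of the 6 in the list exceeded 16-fold. The match to mouse regulatory subunit 6A, one of the ATPases that unfold substrates, had 308, 390 and 294 counts in ovary and 0 in every non-gonadal library, at least 222-fold higher against a floor of 3 counts over the group. The match to fission yeast rpn1 had 59, 71 and 36 counts in ovary and 0 in every non-gonadal library, at least 37.2-fold higher. The match to the ATPase p97, which extracts ubiquitin-tagged proteins from membranes and complexes, had 25.1, 31.3 and 22.5 TPM in ovary and 0.352, 0.101 and 0 TPM in non-gonadal tissue. In testis libraries the mean levels of the 6A, eIF3h, eIF4A and p97 matches were 0.137, 0, 0.0524 and 0.0288 TPM.

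**Figure D5:**
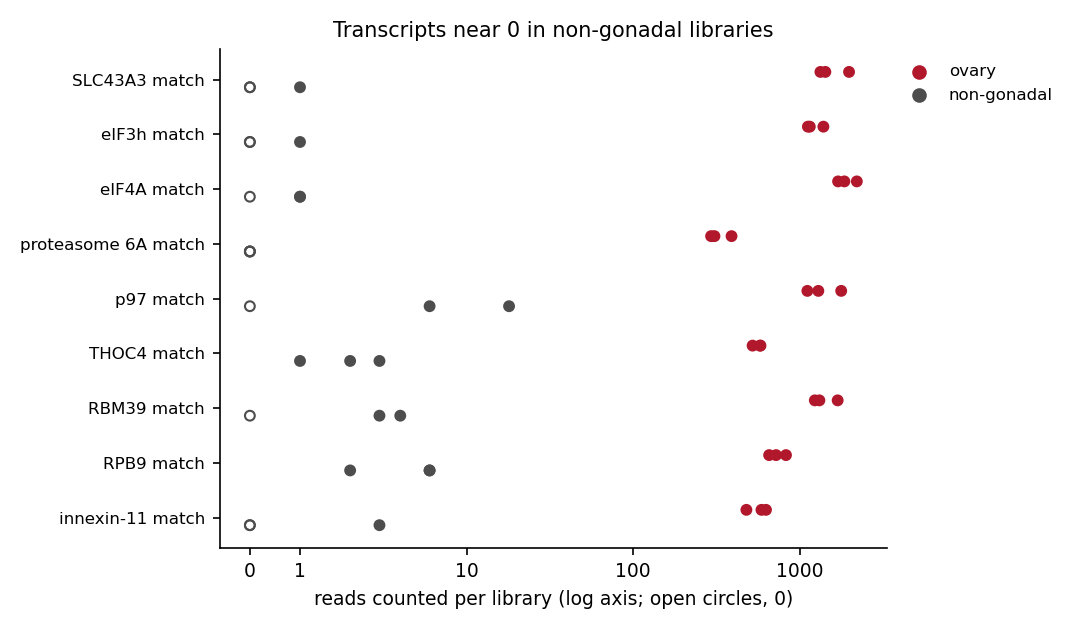
Reads counted per library on a log axis for 9 transcripts with names, with ovary libraries in red above non-gonadal libraries in grey in each row. Open circles at the left stand for 0 counts. Ovary libraries held 294 to 2205 counts of each, and non-gonadal libraries 0 to 18.

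Single members of other lists followed that pattern while the rest of their list did not. Nuclear pore and transport matches were called higher in 11 of 11 with a median of 1.39, and 7 of them lay between 1.13 and 1.48. The match to the RNA export adaptor THOC4, by contrast, had 36, 32.6 and 33.8 TPM in ovary and 0.0625, 0.107 and 0.176 TPM in non-gonadal tissue, and 2 matches to the mRNA export factor RAE1 differed by 3.58 ± 0.18 and 4.23 ± 0.17. Splicing matches were called higher in 8 of 8 with a median of 1.43, and the match to the splicing regulator RBM39 had 1314, 1692 and 1234 counts in ovary and 3, 4 and 0 counts in non-gonadal tissue. A match to Transformer-2, a splicing regulator of sex determination in Drosophila, averaged 6.75 ± 1.53 TPM in ovary and 0.0768 ± 0.0667 TPM in non-gonadal tissue (SD, n = 3 each).

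RNA polymerase II machinery was called higher in 14 of 14, with a median of 2.05 and the same spread. Matches to the polymerase subunit RPB9 and to the TFIID subunit TAF7 were in the far part. RPB9 had 99.1, 71.5 and 90.4 TPM in ovary and 0.242, 0.623 and 0.681 TPM in non-gonadal tissue, and TAF7 had 390, 476 and 375 counts in ovary and 1, 1 and 0 counts in non-gonadal tissue. A match to subunit 1 of TFIIH had 102, 163 and 125 counts in ovary and 0 in every non-gonadal library, at least 87.4-fold higher. The elongation factor SPT4 match was the most abundant, with 166, 141 and 155 TPM in ovary and 33, 39 and 28.9 TPM in non-gonadal tissue, and the TATA-box-binding protein matches differed by 1.96 ± 0.13 and 2.14 ± 0.24 on the log2 scale.

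DNA replication matches were called higher in 10 of 10, with a median of 2.28. The histone chaperone ASF1B match, which hands new histones to replicating DNA, was the most abundant, with 166, 201 and 183 TPM in ovary and 10.3, 10.3 and 9.08 TPM in non-gonadal tissue. The replication licensing factor CDC6 match differed most, with 69.2, 86.8 and 66 TPM in ovary and 0.864, 1.92 and 1.29 TPM in non-gonadal tissue, a log2 difference of 5.11 ± 0.22 (edgeR adjusted p = 1.0e-09). The helicase MCM8, which acts in meiotic recombination in mice, followed at 4.07 ± 0.18. Origin recognition, primase and polymerase epsilon matches lay between 1.90 and 2.28. In the checkpoint and repair list, called higher in 6 of 6, the kinase Chk1 match had 49.6, 59.6 and 51.4 TPM in ovary and 2.55, 3.51 and 2.34 TPM in non-gonadal tissue, and the match to ATR, the kinase that activates Chk1, differed by 1.44 ± 0.15. Chromosome structure matches, called higher in 5 of 5, were tightly grouped between 1.76 and 2.37 and included cohesin RAD21 at 74.9 ± 9.85 TPM in ovary and 12.5 ± 0.621 TPM in non-gonadal tissue.

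Ribosome biogenesis matches were called higher in 14 of 14, with a median of 1.71 and a range of 1.21 to 2.88. The match to HEATR1, a factor of ribosomal RNA transcription, had 20.6, 32.3 and 22.9 TPM in ovary and 2.01, 2.26 and 2.30 TPM in non-gonadal tissue, and differed most. The UTP11 match was the most abundant, with 106 ± 5.89 TPM in ovary and 25.5 ± 1.99 TPM in non-gonadal tissue. Chromatin regulators were called higher in 13 of 13 with a median of 1.95, and ranged from the WDR5 match at 1.09 ± 0.09 to a short ISWI match of 326 bases, which had 15.3, 16.1 and 12.7 TPM in ovary and 0, 0.379 and 0 TPM in non-gonadal tissue. The second non-gonadal library alone held those 3 counts. The acetyltransferase CREB-binding protein match averaged 11.8 ± 1.82 TPM in ovary and 0.753 ± 0.224 TPM in non-gonadal tissue.

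Innexins build the gap junctions of invertebrates, which in several animals couple germ cells to the somatic cells around them. All 4 matches were called higher. The innexin-11 match had 479, 628 and 590 counts in ovary and 0, 3 and 0 counts in non-gonadal tissue, a ratio of 380 (exact 95% interval 130 to 1845). Innexin-19 had 131, 137 and 102 counts in ovary and 0, 0 and 1 counts in non-gonadal tissue, and innexin-3 had 20.4, 24.2 and 20.5 TPM in ovary and 0.687, 0.208 and 0.531 TPM in non-gonadal tissue. The unc-9 match was nearer, with 4.88 ± 0.605 TPM in ovary and 0.709 ± 0.167 TPM in non-gonadal tissue. Basement membrane and matrix matches were called higher in 7 of 7 but with a median of 1.29. Their most abundant member, laminin beta-1, had 38.8, 51.7 and 43.3 TPM in ovary and 13.3, 13.4 and 14.1 TPM in non-gonadal tissue, and without the second ovary library its difference of 1.00 fell just short of 2-fold.

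Among sequence-specific transcription factors, 12 of 12 were called higher with a median of 2.27. The Forkhead box I2-A match had 33.2, 40.6 and 40.8 TPM in ovary and 0.300, 0.147 and 0.201 TPM in non-gonadal tissue, a log2 difference of 6.82 ± 0.23 (edgeR adjusted p = 1.3e-10). The E2F5 match, related to cell cycle regulators, had 42, 44 and 40 counts in ovary and 0 in every non-gonadal library, at least 28.2-fold higher. The nuclear receptor ROR-beta match differed by 3.45 ± 0.18 on the log2 scale. The SMAD4 match, a mediator of TGF-beta and BMP signals, was abundant in both tissues, at 50.4 ± 5.89 TPM in ovary and 11.7 ± 0.733 TPM in non-gonadal tissue.

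The receptors for transmitters and peptides in the list were called higher in 8 of 8, as the choice of the list fixed, with a median of 2.62. They were low in level. The muscarinic acetylcholine receptor M3 match was the most abundant, with 21.3, 25 and 23 TPM in ovary and 0.955, 2.16 and 1.33 TPM in non-gonadal tissue. A serotonin receptor match differed most, with 6.93, 7.84 and 7.06 TPM in ovary and 0.322, 0.277 and 0.277 TPM in non-gonadal tissue, a log2 difference of 4.00 ± 0.24 (edgeR adjusted p = 1.4e-08). Another serotonin receptor match differed by 1.66 ± 0.22. The neurotensin receptor and SIFamide receptor matches averaged 14.8 ± 2.33 and 10.9 ± 1.63 TPM in ovary and 0.811 ± 0.366 and 0.739 ± 0.247 TPM in non-gonadal tissue (SD, n = 3 each). Of the 3 matches to the vesicular acetylcholine transporter, which loads acetylcholine into vesicles, the first had 34.8, 35.1 and 32.5 TPM in ovary and 1.89, 2.11 and 2.77 TPM in non-gonadal tissue, and the other two differed by 1.07 ± 0.17 and 1.25 ± 0.27.

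Transposon-derived matches were the only list with a member that was not called, 5 of 6 being called higher with a list median of 2.78. The Ty3-like match with the highest level had 27.4, 16.8 and 26 TPM in ovary and 0.992, 2.31 and 2.29 TPM in non-gonadal tissue. The match to the R2 retrotransposon protein, chosen after its values were seen, had 311, 218 and 125 counts in ovary and 48, 0 and 0 counts in non-gonadal tissue. It was not called (log2 difference 3.16 ± 0.98, edgeR adjusted p = 0.012), and without the first non-gonadal library, which held all 48 counts, it was called at an edgeR adjusted p of 0.00038. Without the second or the third it was not called (adjusted p = 0.041 each), and DESeq2 gave 0.25. The other annotated transcript that was not called, a fragment of a G-protein coupled receptor, had 60, 76 and 34 counts in ovary and 20, 13 and 18 counts in non-gonadal tissue.

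Outside these lists, the named transcripts with the highest ovary levels after *lecg* and the CGH-1 match were of varied roles. The heat shock cognate HSP7C match, a chaperone, had 807, 1222 and 973 TPM in ovary and 154, 151 and 169 TPM in non-gonadal tissue. A match to the beta subunit of the sodium/potassium pump averaged 544 ± 42.5 TPM in ovary and 103 ± 2.00 TPM in non-gonadal tissue, and histone H2A.J averaged 523 ± 20.9 TPM in ovary and 82.5 ± 12.5 TPM in non-gonadal tissue. The transcript of secreted peptide prohormone 17, the precursor of a signalling peptide, averaged 545 ± 77.2 TPM in ovary and 85.5 ± 23.3 TPM in non-gonadal tissue (SD, n = 3 each), with a testis mean of 0.166 TPM. A zinc finger transcript that matches mouse ZFP26 stood out for its difference at that level, with 323, 426 and 354 TPM in ovary and 11, 11.3 and 9.68 TPM in non-gonadal tissue, a log2 difference of 4.47 ± 0.14 (edgeR adjusted p = 7.0e-11).

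By size of difference, the named transcript at the top was the match to the solute carrier SLC43A3, a purine transporter in mammals. It had 1427, 1980 and 1333 counts in ovary and 0, 0 and 1 counts in non-gonadal tissue, a ratio of 3185 (exact 95% interval 571 to 125826). The match to ENTPD5, a nucleoside diphosphatase of the endoplasmic reticulum, had 48.6, 54.2 and 47.5 TPM in ovary and 0.0508, 0 and 0 TPM in non-gonadal tissue. Atlastin-2, a C2H2 zinc finger protein and strawberry notch matches had 0 counts in every non-gonadal library and were at least 113-fold, 91.6-fold and 50.2-fold higher in ovary against the floor of 3 counts over the group. These intervals and floors hold for counting error alone, because reads were not marked by molecule.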

How the data were processed

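RNA from laser-captured ovary and non-gonadal tissue was sequenced as single-end reads by the study. The authors used CLC Genomics Workbench to trim and map reads against a transcriptome assembled de novo, to which *zfs1* had been added, and to count them. Its version and its handling of multiple matches are not given in the sources at hand. The deposited counts per transcript are not normalized and were tested. Deposited TPM gave the levels, deposited RPKM served with the counts to recover transcript lengths, and the deposited CPM is a signal, since it carries a composition factor of each library that the authors did not describe; it was used for the filter alone. Deposited fold changes and p-values of the authors' own comparisons were not used.

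One edgeR quasi-likelihood model (edgeR 4.0.16, limma 3.58.1, R 4.3.3) with TMM scaling was fitted to all 9 libraries, testis included, so that they share 1 estimate of the spread, after tests on simulated data. Lengths recovered from RPKM were the same within 0.5% for 100% of the 120976 values that rested on 50 counts or more. Alternatives were other scalings, DESeq2 1.42.0, other filters and thresholds, each library left out and the replicate number as a block. Counts of near-absent transcripts without each library were added after seeing the data. The transcripts named were those the paper names, the most abundant and most different member of each list, the 10 with the largest difference and the 10 with the highest level among named transcripts in each direction, and in each direction 1 of each kind without a name; other list members are given to describe the lists. For transcripts other than the annotated matches and *zfs1*, names were paired with identifiers from an earlier account of these data and checked against the labels of the study's figures. Members and lists were chosen with earlier results of these data known. On the lower side names were at hand for *tph1* and *henna* alone.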

Additional observations from a re-analysis of the deposited data

How the results depend on the processing

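The count of transcripts higher in ovary was 3364 and of those lower 3466. Scaling by library size alone gave 5311 higher and 2390 lower. Leaving out 1 library gave 3227 to 3505 higher and 3330 to 3461 lower, and the other alternatives gave 3258 to 3812 higher and 3384 to 4151 lower. Counts of near-absent transcripts, 134 counted in ovary and 58 in non-gonadal tissue, were 135 to 195 and 58 to 111 without 1 library, a choice made after seeing the data. Leaving out a library loosens the rule and could not lower these counts, so the ranges do not measure how stable they are. Whether replicate numbers pair the libraries was not settled. Deviations of same-numbered libraries correlated at 0.19, 0.16 and -0.02, and those of differently numbered libraries at -0.24 to 0.11. These values cannot decide it, because deviations from a mean of 3 libraries are tied to each other. With the replicate number as a block, 3283 were higher and 3460 lower. None of 67 named transcripts changed direction under any alternative in which it was tested. The calls of *tph1* and *henna* were lost with library size alone, under the test against a 1.5-fold change (log2 differences -1.09 and -1.02) and, for at least 1 of the 2, without 1 library of either tissue, and those of *elav2*, *bic-c*, *C3H-zfn-1* and *sped-1* were gained with library size alone. DESeq2 gave no adjusted p for the CGH-1 match. Depth limits statements on transcripts at or near 0 counts to the bounds and intervals given.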
